A study of Mus musculus with 6 samples.

Results

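Replication-dependent histone genes encode the histone proteins that package newly made DNA. The genes described here were chosen by name and level: every gene symbol that begins with Hist1h, Hist2h, Hist3h or Hist4h and that reached 1 TPM in 2 or more of the 6 columns. Of the 35999 gene symbols in the table, 70 carried such a name and 64 of these passed the level. They comprised 5 genes of the linker histone H1, 17 of H2A, 18 of H2B, 12 of H3 and 12 of H4. By cluster, 50 lay in Hist1, 10 in Hist2, 3 in Hist3 and 1 was Hist4h4.

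The libraries came from primary mouse hepatic stellate cells, the retinoid-storing pericytes of the liver, on day 1, day 4 and day 7, with 2 libraries a day (named replicates 2 and 3 on day 1, and 1 and 2 on days 4 and 7). The labels name no treatment, genotype, strain or age, and leave unsaid when day counting began and whether libraries of a day were separate cultures or animals. All p-values below therefore cover only the spread between libraries, which may be technical. Total RNA was depleted of ribosomal RNA and made into stranded libraries, per the labels' protocols, so RNA was not selected by a poly(A) tail, and levels were deposited as TPM, which divides reads by transcript length and by the library's total and keeps no record of depth.

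Replication-dependent histone mRNAs are made mainly in S phase, when new nucleosomes are assembled behind the replication fork. They carry no introns and, unlike other mRNAs, most end not in a poly(A) tail but just after a conserved stem-loop, which is bound by the stem-loop binding protein SLBP and cut with the help of the U7 small nuclear ribonucleoprotein. H3 with H4 and H2A with H2B form the nucleosome core, and H1 binds the DNA between nucleosomes. Some genes of the family, Hist1h1c, Hist1h2bc and Hist2h2be among them, are also known to give polyadenylated mRNAs in differentiated cells.

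In the GENCODE M21 transcripts (GRCm38), the 16-base histone stem-loop was present in 44 of the 64 members. Over the whole annotation it was found in 86 of 55341 genes, or 0.155%, and those 86 include the 44. The most frequent form, in 26 members of H1, H2A, H2B and H3, was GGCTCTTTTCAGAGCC; it was in no H4 member. Among the H4 members 6 had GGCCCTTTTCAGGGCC. The stem-loops of genes described below are shown with 5 transcript bases on each side, the stem-loop in capitals, because they show how the form differs between classes.
Hist1h1c: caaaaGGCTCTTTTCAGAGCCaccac
Hist2h2aa2: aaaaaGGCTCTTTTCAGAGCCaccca
Hist1h2ab: acaaaGGCTCTTTTCAGAGCCaccca
Hist1h2bk: ccaaaGGCTCTTTTAAGAGCCactaa
Hist1h3c: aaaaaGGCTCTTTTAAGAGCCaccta
Hist1h3g: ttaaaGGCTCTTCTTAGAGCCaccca
Hist1h4f: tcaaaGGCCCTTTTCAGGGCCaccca
Hist1h4b: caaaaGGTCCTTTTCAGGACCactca
Hist1h4i: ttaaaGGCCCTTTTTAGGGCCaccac

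The other 20 members had no stem-loop within their annotated model, and 14 of these models were shorter than 500 bases. A model without it says only that the annotated transcript does not hold these letters. Hist1h1a and Hist1h1b were 2 such genes.

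Promoters from RefSeq (GRCm38.p6) were matched for 58 of the 64 members. In the 250 bases before the start, CCAAT on either strand was present in 48 of the 58 (82.8%), against 33.8% of all 32851 promoters, and TATAAA on either strand in 26 (44.8%), against 12.4%. The share with CCAAT differed by class. It was 100% in H1 (5 promoters), H2A (17) and H2B (15), 80% in H3 (10) and 27.3% in H4 (11). ATTTGCAT, the octamer, was found in 6 H2A and 6 H2B promoters and in no H1, H3 or H4 promoter, against 1.6% of all promoters. AAACACA was found in 4 of the 5 H1 promoters, against 6.25% of all promoters. Each motif was counted on its own, whether or not its match overlapped that of another, and a match is a description, not a site. Head-to-head H2A and H2B members start only 173 to 302 bases apart, so their windows overlap. The same match can therefore be counted in both partners, as was the octamer of Hist1h2ah and Hist1h2bk. Hist1h2bq and Hist1h2br have the same 150 bases before the start.

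The 150 bases before the start are printed for 5 members whose changes are given below, chosen to show the motifs by class. Capitals mark matches to the 4 motifs named above, on either strand.
Hist1h1b (chr13:21780626-21780775, minus strand): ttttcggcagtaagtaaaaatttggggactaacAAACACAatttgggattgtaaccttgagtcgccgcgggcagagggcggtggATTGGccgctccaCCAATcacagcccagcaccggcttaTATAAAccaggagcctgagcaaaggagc
Hist1h1c (chr13:23738657-23738806, plus strand): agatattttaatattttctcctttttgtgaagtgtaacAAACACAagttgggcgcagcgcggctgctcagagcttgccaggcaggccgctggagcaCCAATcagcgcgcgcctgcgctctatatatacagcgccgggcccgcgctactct
Hist1h2bk (chr13:22035671-22035820, plus strand): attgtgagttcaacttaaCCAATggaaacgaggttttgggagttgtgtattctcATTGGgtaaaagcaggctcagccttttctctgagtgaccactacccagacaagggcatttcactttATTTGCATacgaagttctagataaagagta
Hist1h3c (chr13:23745522-23745671, minus strand): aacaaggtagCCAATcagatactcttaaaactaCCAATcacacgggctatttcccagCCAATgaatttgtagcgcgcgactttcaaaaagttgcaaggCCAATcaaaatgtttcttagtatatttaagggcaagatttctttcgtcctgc
Hist1h4n (chr13:21832198-21832347, minus strand): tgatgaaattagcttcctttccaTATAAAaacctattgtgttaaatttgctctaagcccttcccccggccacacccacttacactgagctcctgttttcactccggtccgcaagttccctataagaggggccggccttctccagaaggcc

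Of the 6 symbols that missed the level, Hist1h2ba and Hist1h4m were listed at 0 in every library, and Hist1h1t, Hist1h2aa and Hist1h2al stayed below 1 TPM in every library. Hist1h2aj, annotated as a pseudogene, stood just outside, with 1.23 TPM in 1 library and 0.738 TPM in the next. Hist2h3c1 was just inside by its second-highest value, 2.76 TPM. The level required of members did not rest on the later days for most of them, since 61 of the 64 had at least 1 TPM in both day 1 libraries.

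Libraries and cells differed in ways that touch every result. In the day 1 libraries, 12 predicted gene models with satellite-like sequence held 17.4% and 26.2% of all TPM, against 0.0594% to 0.0913% in the later libraries, which lowers every other day 1 TPM. Within day 1, 56 of the 64 members were higher in replicate 2 than in replicate 3, with a median difference of 0.51 on the log2(TPM + 1) scale, beside 0.00 over all 14373 genes tested. The stellate markers Dcn, Reln and Des were present in every library, while Lrat, the enzyme that stores retinoid and a defining stellate marker, was at 0.491 and 0.496 TPM on day 1 and between 4.498 and 6.348 TPM later. Summed over 14 genes, macrophage markers stood at 11035.7 to 13904.5 TPM on day 1, 27215.6 to 27275.3 TPM on day 4 and 26260.1 to 28538.8 TPM on day 7, and the 12 stellate markers at 197 to 245 TPM, 812 to 825 TPM and 757 to 806 TPM on the same days. Within the macrophage sum, Lyz2 averaged 1155 TPM on day 1, 7389 TPM on day 4 and 10741 TPM on day 7. Over the 14 macrophage markers, log2 changes of day 7 against day 4 ran from -0.93 to 0.54, with a median of -0.09, and none was called. Most of the stellate sum was Dcn, at 132 and 87.8 TPM on day 1 and 607 to 659 TPM later. Of 11 stellate markers tested, 7 were called higher and 0 lower on day 4 against day 1. On day 7 against day 1, 6 were called higher and 3 lower. Colec11 and Vipr1 had lower means on both later days than on day 1, and Ngfr stayed below 1 TPM.

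The histone genes were far more abundant on day 4 than on day 1, in all 5 classes. Summed over the 64 members, TPM was 2727 and 1877 TPM on day 1, 10706 and 11074 TPM on day 4 and 13927 and 12471 TPM on day 7, that is 0.275% and 0.190% of all TPM on day 1, 1.08% and 1.12% on day 4, and 1.40% and 1.26% on day 7. Every later library exceeded both day 1 libraries. Summed H1 was 147 and 130.2 TPM on day 1, 537 and 571 TPM on day 4 and 728 and 662 TPM on day 7. For H2A the sum was 942 and 657 TPM on day 1, 2785 and 2915 TPM on day 4 and 3672 and 3556 TPM on day 7. H2B summed to 657 and 374 TPM on day 1, 2692 and 2807 TPM on day 4 and 3472 and 3186 TPM on day 7. The groups of days 1 and 4 did not overlap in any of these sums. H3, which was at about the level of H1 on day 1, summed to 157 and 114 TPM on day 1, 1603 and 1585 TPM on day 4 and 2126 and 2012 TPM on day 7. H4 summed to 824 and 602 TPM on day 1, 3089 and 3196 TPM on day 4 and 3930 and 3055 TPM on day 7. The ratio of the day 4 mean to the day 1 mean was 11.7 for H3 and lay between 3.56 and 5.33 for the other classes. With day 1 and later libraries rescaled without the satellite-like models it was 9.24 for H3 and 2.81 to 4.22 for the others.

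**Figure D1:**
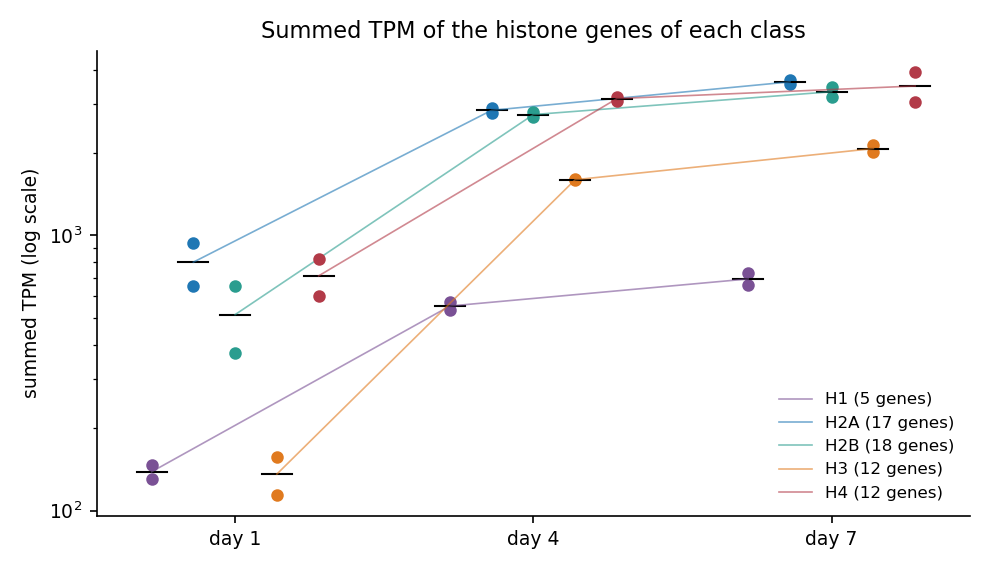
Summed TPM (log scale) of the members of each histone class in each library, by day; each point is 1 library, short black bars are the mean of 2 libraries and lines join the means. Every class is higher on days 4 and 7 than on day 1, and H3 is at 1585 to 2126 TPM on the later days, against 114 to 157 TPM on day 1, where it is near H1.

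The classes made up different shares of histone RNA on the days. H3 was 5.76% and 6.09% of the summed TPM on day 1, 15.0% and 14.3% on day 4 and 15.3% and 16.1% on day 7. H2A was 34.5% and 35.0% on day 1, and between 26.0% and 28.5% later. H1 stayed between 5.02% and 6.93% in all 6 libraries. These shares of sums were not tested.

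Tested gene by gene with limma on log2(TPM + 1), with Benjamini-Hochberg adjustment over all 14373 genes, 56 of the 64 members (87.5%) were higher on day 4 than on day 1 at an adjusted p threshold of 0.05. Over all genes tested, 25% were called higher and 11.6% lower. No member was called lower, and 1 was lower at an unadjusted p under 0.05, Hist2h3c1. The median log2 change was 2.55 over the members and 0.11 over all genes tested. The median member averaged 15.6 TPM on day 1, 129 TPM on day 4 and 167.5 TPM on day 7, and 5, 36 and 41 members reached 100 TPM on these days. In 60 members both day 4 libraries were above both day 1 libraries, as was the case for 43% of all genes tested. After rescaling without the satellite-like models, 56 members were called higher and 2 were called lower, Hist2h2be and Hist2h3c1. On that scale the median log2 change was 2.20 over the members and -0.22 over all genes tested, of which 2060 were called higher and 3468 lower, in place of 3590 and 1667. Bulk RNA cannot tell more cells that express these genes from more histone RNA per cell.

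**Figure D2:**
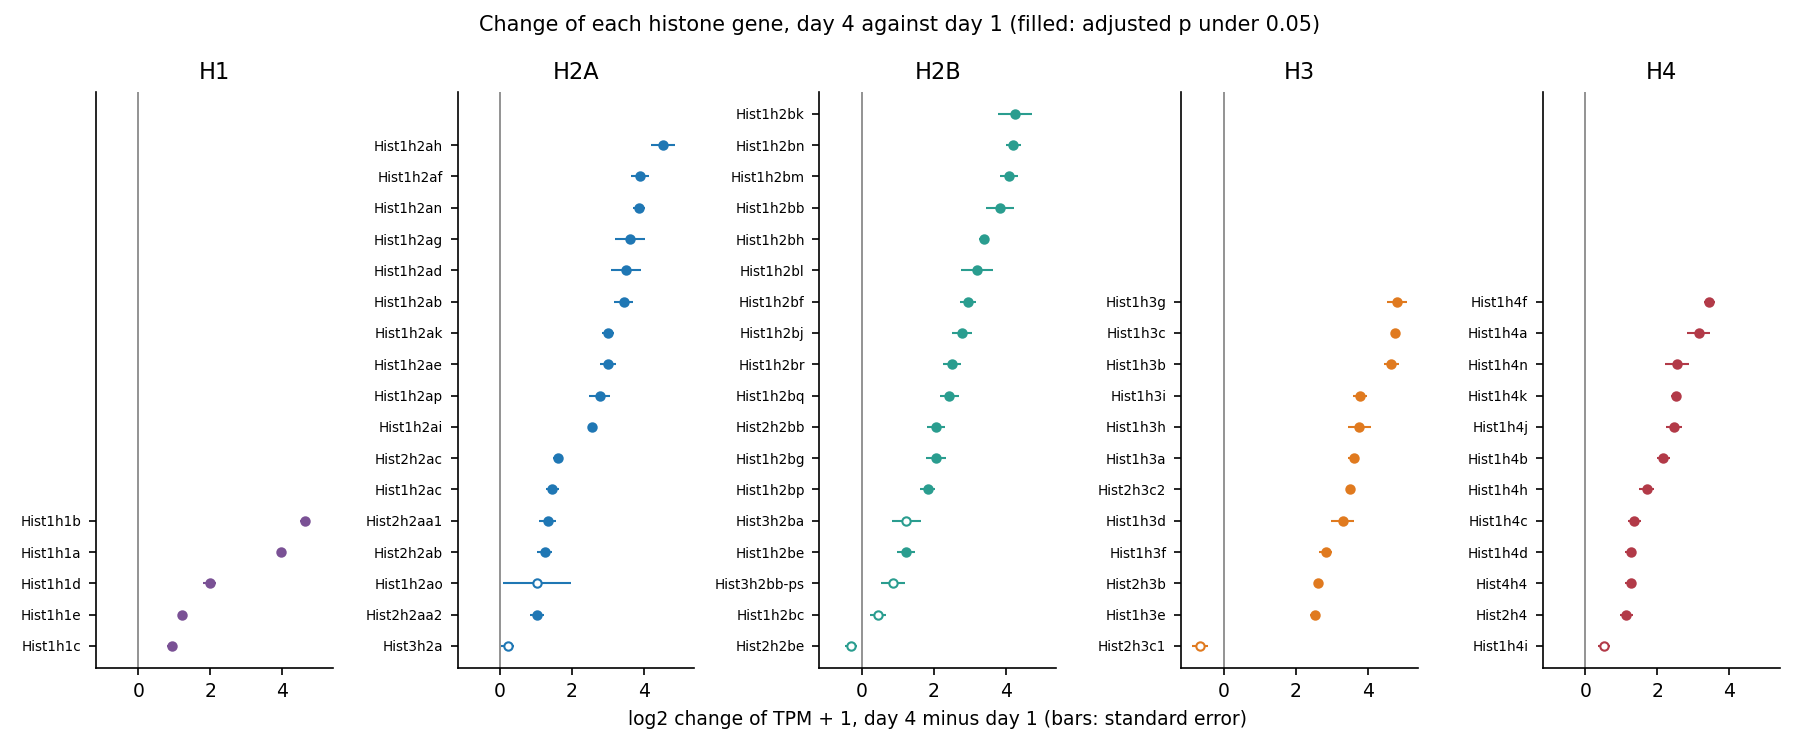
Log2 change of TPM + 1 of each member on day 4 minus day 1, 1 panel per class, sorted by size; bars are standard errors of the limma fit and filled points passed an adjusted p threshold of 0.05. Filled points number 5 of 5 in H1, 15 of 17 in H2A, 14 of 18 in H2B, 11 of 12 in H3 and 11 of 12 in H4.

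All 5 linker histone genes were called higher on day 4, by unequal amounts. Hist1h1b (chr13:21779883-21780625, minus strand) encodes an H1 subtype and had 3.22 and 4.3 TPM on day 1, 112 and 120.5 TPM on day 4 and 165 and 157 TPM on day 7. Both later days stood far above day 1, with no overlap between any of the 3 days (log2 change 4.63, SE 0.14, adjusted p = 2.01e-05 for day 4 against day 1). Hist1h1a (chr13:23763666-23764406, plus strand), another subtype, had 10.8 and 9.77 TPM on day 1, 166 and 185.5 TPM on day 4 and 220.4 and 216 TPM on day 7, again with 3 separate groups (log2 change 3.97, SE 0.11, adjusted p = 1.74e-05). Neither gene shares any 50-base word with another annotated gene.

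Hist1h1c (chr13:23738808-23740367, plus strand), a broadly expressed subtype, was the most abundant H1 gene on day 1 and had the smallest log2 change of the class on day 4 against day 1. It had 95.2 and 76.0 TPM on day 1, 161 and 166 TPM on day 4 and 229 and 195 TPM on day 7 (log2 change 0.94, SE 0.15, adjusted p = 0.0055 for day 4 against day 1). This call did not hold without day 4 replicate 2, where the adjusted p was 0.0529. Hist1h1e had 34.4 and 37.4 TPM on day 1, 84.2 and 83.9 TPM on day 4 and 92.9 and 80.1 TPM on day 7, and its day 4 and day 7 values overlapped (log2 change 1.21, SE 0.11, adjusted p = 0.000736 for day 4 against day 1). Hist1h1d was the least abundant, at 3.01 and 2.7 TPM on day 1, 13.8 and 14.7 TPM on day 4 and 20.2 and 14.3 TPM on day 7 (log2 change 1.99, SE 0.19, adjusted p = 0.000684). Its annotated model of 7425 bases runs 4884 bases past the stem-loop.

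The makeup of H1 RNA differed accordingly. Hist1h1c was 64.9 and 58.4% on day 1, 30.0 and 29.1% on day 4 and 31.5 and 29.4% on day 7 of summed H1 TPM. Hist1h1a was 7.36 and 7.5% on day 1, 31.0 and 32.5% on day 4 and 30.3 and 32.7% on day 7, and Hist1h1b 2.2 and 3.3% on day 1, 20.8 and 21.1% on day 4 and 22.7 and 23.7% on day 7. The shares of Hist1h1a and Hist1h1b were thus larger on the later days, and that of Hist1h1c was smaller, in each library; these shares were not tested.

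**Figure D3:**
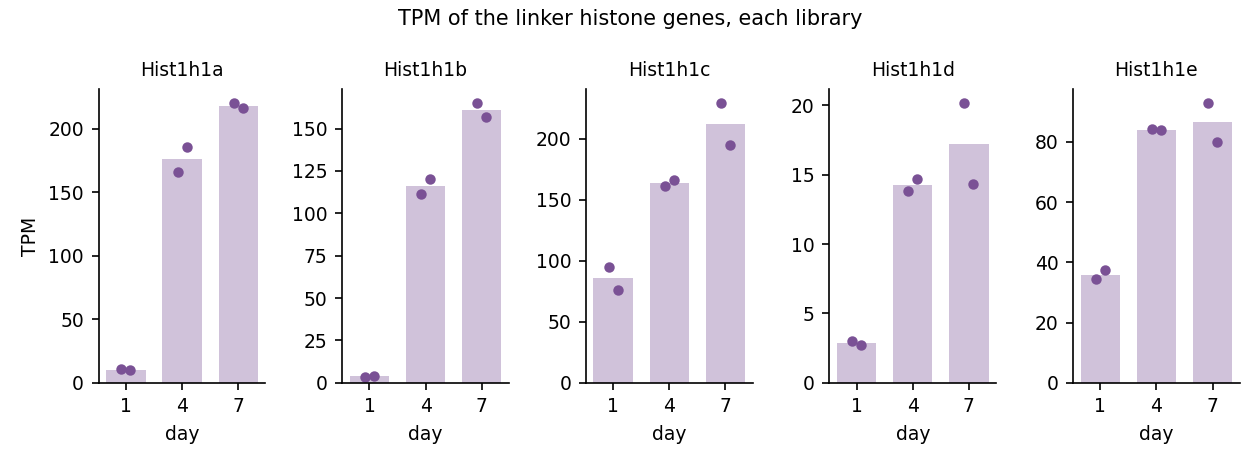
TPM of the 5 linker histone genes; points are the 2 libraries of a day and bars their mean, each panel with its own axis from 0. Hist1h1a and Hist1h1b are near the axis on day 1 (3.22 to 10.8 TPM), whereas Hist1h1c is already at 76.0 and 95.2 TPM.

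Among the H2A genes, 15 of 17 were called higher on day 4, with a median log2 change of 2.76 and changes from 0.22 to 4.52. The median H2A gene averaged 12.01 TPM on day 1, 93.9 TPM on day 4 and 116 TPM on day 7. Hist2h2aa2 (chr3:96239749-96240276, minus strand) was the most abundant of all 64 members on each day, at 517 and 361 TPM on day 1, 879 and 889 TPM on day 4 and 983.5 and 968 TPM on day 7. Its day 4 values were clear of day 1 (log2 change 1.03, SE 0.19, adjusted p = 0.00924), but the call was lost without either day 4 library, at adjusted p of 0.0698 without replicate 1 and 0.0752 without replicate 2. Its partner copy Hist2h2aa1 had 91.5 and 56.1 TPM on day 1, 166 and 196 TPM on day 4 and 275 and 302 TPM on day 7, with all 3 days separate (log2 change 1.32, SE 0.23, adjusted p = 0.0079); without day 4 replicate 2 its adjusted p was 0.0618. All 50-base words of both copies occur in another annotated gene, so the split between them is uncertain, and their sum was called as well (log2 change 1.08, SE 0.20, adjusted p = 0.00922).

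In the Hist1 cluster Hist1h2ab had 35.4 and 19.1 TPM on day 1, 289.5 and 293 TPM on day 4 and 393 and 366 TPM on day 7 (log2 change 3.44, SE 0.27, adjusted p = 0.000332). Hist1h2ak reached a similar level, with 38.5 and 27.2 TPM on day 1, 268 and 264 TPM on day 4 and 368 and 365 TPM on day 7 (log2 change 3.00, SE 0.17, adjusted p = 0.000107). In both genes the days were 3 separate groups, and 58.0% and 57.0% of their words occur in another gene. Hist1h2ah showed the largest change of the class, with 3.89 and 1.37 TPM on day 1, 68.3 and 86.6 TPM on day 4 and 115.5 and 102 TPM on day 7 (log2 change 4.52, SE 0.33, adjusted p = 0.00027), but 92.1% of its words are found in another gene. The members not called were Hist3h2a and Hist1h2ao. The libraries of Hist1h2ao varied widely, at 0 and 4.61 TPM on day 1, 7.34 and 1.83 TPM on day 4 and 9.84 and 2.94 TPM on day 7 (log2 change 1.04, SE 0.95, adjusted p = 0.419), and 93.5% of its words are shared.

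Of the H2B genes 14 of 18 were called higher on day 4, with a median log2 change of 2.47 and changes from -0.29 to 4.26. By day mean, the least and most abundant H2B genes stood at 1.93 and 154 TPM on day 1, 3.75 and 626 TPM on day 4 and 3.97 and 714 TPM on day 7. Hist2h2bb (chr3:96269752-96270132, plus strand) was the most abundant, at 192 and 116 TPM on day 1, 608 and 643.5 TPM on day 4 and 732 and 695 TPM on day 7 (log2 change 2.06, SE 0.24, adjusted p = 0.00151). Hist1h2bb had 34.4 and 13.5 TPM on day 1, 308 and 337.5 TPM on day 4 and 432 and 396 TPM on day 7 (log2 change 3.84, SE 0.38, adjusted p = 0.000903). In both, day 1 replicate 2 was well above replicate 3, yet both day 1 values lay far below day 4. Hist1h2bk, with the largest change of the class, had 27.0 and 8.35 TPM on day 1, 292 and 326 TPM on day 4 and 399 and 363 TPM on day 7 (log2 change 4.26, SE 0.46, adjusted p = 0.00126), and 74.2% of its words are shared. Hist1h2bj had 42.3 and 21.5 TPM on day 1, 213 and 215 TPM on day 4 and 302 and 295 TPM on day 7 (log2 change 2.79, SE 0.29, adjusted p = 0.001). Of its words 59.4% are shared.

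Hist2h2be stood apart from the other H2B genes. It had 5.25 and 4.42 TPM on day 1, 3.75 and 3.74 TPM on day 4 and 3.79 and 4.15 TPM on day 7, so that both later days were lower than both day 1 libraries, but the difference did not pass the test (log2 change -0.29, SE 0.16, adjusted p = 0.19). Its model shares no 50-base word with another gene and holds no stem-loop. On the scale without the satellite-like models it was called lower on day 4 (log2 change -0.60, adjusted p = 0.0323). Hist1h2bc, named here because it was 1 of the 8 members not called, had 148 and 87.8 TPM on day 1, 156 and 156 TPM on day 4 and 203 and 200.1 TPM on day 7 (log2 change 0.45, SE 0.23, adjusted p = 0.177), with both day 4 values just above day 1. As a share of summed H2B TPM it was 22.5 and 23.5% on day 1, 5.8 and 5.55% on day 4 and 5.84 and 6.28% on day 7.

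H3 was the class with the largest median log2 change, 3.56, with changes from -0.66 to 4.82, and 11 of 12 members were called higher. The median H3 gene averaged 9.14 TPM on day 1, 143 TPM on day 4 and 186 TPM on day 7. Hist1h3g (chr13:23535422-23535951, plus strand) had the largest change of all 64, with 2.6 and 0.915 TPM on day 1, 73.1 and 73.7 TPM on day 4 and 112 and 114 TPM on day 7 (log2 change 4.82, SE 0.28, adjusted p = 0.000112). Hist1h3h and Hist1h3i were the most abundant, Hist1h3h at 31.4 and 15.1 TPM on day 1, 335.5 and 288 TPM on day 4 and 419 and 367 TPM on day 7 (log2 change 3.77, SE 0.31, adjusted p = 0.000449). For Hist1h3i the values were 21.5 and 14.4 TPM on day 1, 264 and 250 TPM on day 4 and 337 and 317 TPM on day 7 (log2 change 3.79, SE 0.19, adjusted p = 6.9e-05). In each of these genes the 3 days did not overlap, and day 1 was the lowest. The share of words found in another gene was 54.05% for Hist1h3g, 93.9% for Hist1h3h and 87.6% for Hist1h3i.

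Hist2h3b, the most abundant H3 gene on day 1, had 25.5 and 26.8 TPM on day 1, 162 and 173 TPM on day 4 and 228 and 211 TPM on day 7 (log2 change 2.63, SE 0.11, adjusted p = 3.76e-05). All words of Hist2h3b occur in another gene. Hist1h3f had 16.2 and 10.8 TPM on day 1, 98.8 and 103 TPM on day 4 and 120.4 and 114 TPM on day 7 (log2 change 2.84, SE 0.18, adjusted p = 0.000166). Hist1h3c, whose stem-loop and promoter are shown above, had 4.92 and 3.88 TPM on day 1, 139 and 153 TPM on day 4 and 197 and 184 TPM on day 7 (log2 change 4.77, SE 0.13, adjusted p = 1.74e-05). Hist2h3c1, the exception of the class, had 2.76 and 2.45 TPM on day 1, 1.07 and 1.51 TPM on day 4 and 3.28 and 2.22 TPM on day 7, with day 4 below day 1 and day 7 overlapping day 1 (log2 change -0.66, SE 0.22, adjusted p = 0.0608 for day 4 against day 1). All of its words occur in another gene, and its model runs 1162 bases past the stem-loop. Under rescaling without satellite-like models, median-ratio scaling, quantile normalization or a variance without trend it was called lower, with adjusted p between 0.0260 and 0.0464. The 3 Hist2h3 copies summed were called higher (log2 change 2.71, SE 0.10, adjusted p = 2.92e-05).

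H4 genes were among the most abundant on every day, and 11 of 12 were called higher on day 4, with a median log2 change of 1.93 and changes from 0.52 to 3.44. The median H4 gene averaged 49.8 TPM on day 1, 194 TPM on day 4 and 196 TPM on day 7. Hist1h4n (chr13:21831767-21832196, minus strand) had 179 and 89.7 TPM on day 1, 733 and 755 TPM on day 4 and 957 and 732 TPM on day 7 (log2 change 2.54, SE 0.32, adjusted p = 0.00225). Of its words 85.6% occur in another gene. Hist1h4h, the highest H4 gene on day 1, had 227 and 161 TPM on day 1, 623 and 622.5 TPM on day 4 and 750 and 558.5 TPM on day 7 (log2 change 1.70, SE 0.22, adjusted p = 0.0023). Day 7 values of both genes spread around those of day 4. Hist1h4f showed the largest change of the class, with 42.8 and 38.9 TPM on day 1, 435 and 474 TPM on day 4 and 659 and 510.5 TPM on day 7 (log2 change 3.44, SE 0.16, adjusted p = 5.75e-05), and 39.5% of its words are shared. Hist1h4c had 96.1 and 73.0 TPM on day 1, 213 and 220.2 TPM on day 4 and 229 and 180.1 TPM on day 7 (log2 change 1.36, SE 0.18, adjusted p = 0.0026). Hist1h4b, with the stem-loop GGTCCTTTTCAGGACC, had 62.95 and 54.7 TPM on day 1, 265 and 270 TPM on day 4 and 314 and 231 TPM on day 7, with days 4 and 7 overlapping (log2 change 2.17, SE 0.17, adjusted p = 0.000368). Of the words of Hist1h4b 75.9% are shared. Hist1h4i was the H4 gene not called, with 18.9 and 17.4 TPM on day 1, 24.9 and 28.0 TPM on day 4 and 40.0 and 28.5 TPM on day 7 (log2 change 0.52, SE 0.18, adjusted p = 0.0622). On day 7 against day 1 it was called higher (adjusted p = 0.0114). The day 7 call was lost on the scale without the satellite-like models (adjusted p = 0.0552) and without day 7 replicate 1 (adjusted p = 0.0614), and on day 4 against day 1 it was called higher without day 7 replicate 1 (adjusted p = 0.0492) or replicate 2 (adjusted p = 0.0481).

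By cluster, the changes were unequal too. In Hist1, whose members span chr13:21715763-23764406, 47 of 50 were called higher on day 4 with a median log2 change of 2.97. In Hist2 (chr3:96219865-96270132) 8 of 10 were called, with a median of 1.28. None of the 3 Hist3 members (chr11:58948920-58956830) was called. Hist1 held 63.55% and 63.61% of the summed TPM on day 1 and between 78.71% and 80.62% later, and Hist2 34.51% and 34.62% on day 1 and between 18.95% and 20.81% later.

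Hist3h2a, the H2A gene of the Hist3 cluster, had 36.6 and 25.3 TPM on day 1, 36.4 and 34.8 TPM on day 4 and 35.6 and 36.4 TPM on day 7, so that the later libraries all lay between the day 1 libraries (log2 change 0.22, SE 0.18, adjusted p = 0.365). Of its 50-base words 31.5% occur in another gene, chiefly in transcripts of Trim17. Hist3h2ba had 4.87 and 1.43 TPM on day 1, 8.45 and 7.39 TPM on day 4 and 5.33 and 4.15 TPM on day 7 (log2 change 1.24, SE 0.40, adjusted p = 0.0545). The pseudogene Hist3h2bb-ps had 6.6 and 2.8 TPM on day 1, 9.67 and 7.95 TPM on day 4 and 6.22 and 7.46 TPM on day 7 (log2 change 0.86, SE 0.33, adjusted p = 0.0843). In both, day 4 lay above day 1 and day 1 replicate 2 was well above replicate 3. Without day 1 replicate 2 all 3 Hist3 members were called higher on day 4, at adjusted p of 0.00804 for Hist3h2a, 0.00144 for Hist3h2ba and 0.0034 for Hist3h2bb-ps, with day 1 then a single library assumed to vary like those of days 4 and 7. Without day 1 replicate 3 none of them was called, with log2 changes of -0.04 for Hist3h2a, 0.60 for Hist3h2ba and 0.36 for Hist3h2bb-ps. Hist4h4 (chr6:136801553-136804415, minus strand), a lone H4 gene outside the clusters, had 4.74 and 3.73 TPM on day 1, 10.6 and 12.4 TPM on day 4 and 12.2 and 11.4 TPM on day 7 (log2 change 1.26, SE 0.16, adjusted p = 0.00223).

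Near-identical copies limit what a single symbol can show. Cutting each annotated transcript into 50-base words, 33 of the 64 members had at least 50% of their words in another annotated gene, and 7 had under 10%. Among the 33, 31 were called higher on day 4 with a median log2 change of 2.79, and among the other 31 members 25 were called with a median of 1.84. Members were then linked wherever 1 held at least 50% of its words in a single other member, and all members joined by a chain of such links were summed, so that a long transcript with a smaller share could enter a sum through a shorter one. By this, 42 members became 6 rows and the 64 became 28. Of the 28 rows 23 were called higher, all 6 sums among them. The sum of 9 Hist1 H3 genes changed by 3.75 (SE 0.21, adjusted p = 0.000107), that of 11 Hist1 H2A genes by 3.13 (SE 0.20, adjusted p = 0.000157), that of 11 Hist1 H2B genes by 2.38 (SE 0.27, adjusted p = 0.00143) and that of 6 Hist1 H4 genes by 1.99 (SE 0.20, adjusted p = 0.000899), all as log2 of TPM + 1.

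Members also differed by how far their annotated transcript runs past the stem-loop, a split made after the values had been seen. Where the model ended within 100 bases after it (22 members), 21 were called higher on day 4, with a median log2 change of 3.19 and changes from 1.03 to 4.82. Where it ran on for 100 bases or more (22 members), 18 were called, with a median of 1.41 and changes from -0.66 to 3.52, and in the 12 that ran on for 700 bases or more the median was 1.25. In the 20 members without a stem-loop in the model the median was 2.82. Across the 44 members with one, Spearman's rho between the bases after the stem-loop and the change was -0.46, given as a description across genes that share sequence and libraries. Over the 64 members, rho between the length of the longest annotated model and the change was -0.41, and rho between that length and mean TPM was -0.53. Length and distance past the stem-loop were not separated.

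**Figure D4:**
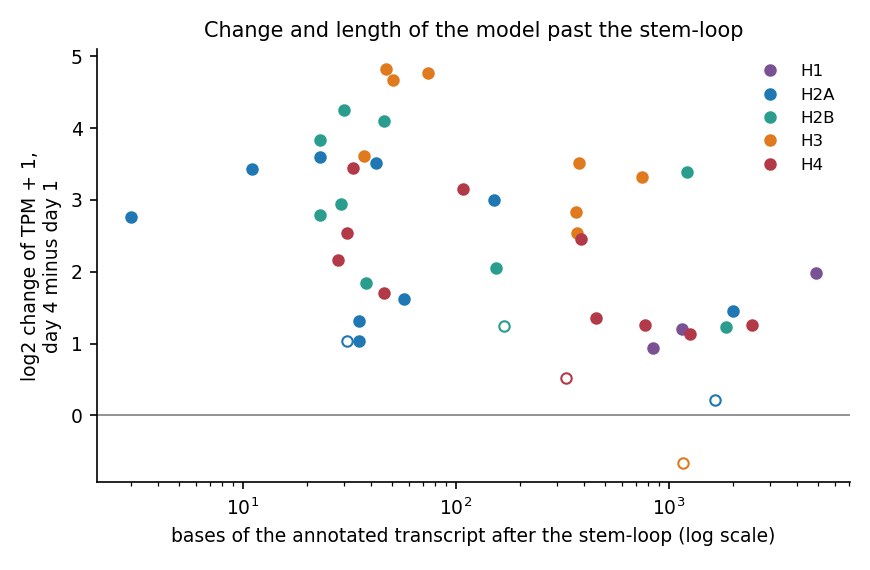
Log2 change of TPM + 1 on day 4 minus day 1 against the bases of the annotated transcript after the stem-loop (log scale) for the 44 members with one; colours are classes and filled points passed an adjusted p threshold of 0.05. Changes above 4 are all at distances under 100 bases, and the lowest, -0.66, is at 1162 bases.

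H2A and H2B genes often lie head to head, and 12 such pairs had both genes among the members, with 173 to 302 bases between their starts. In 8 pairs both genes were called higher on day 4. As 56 of the 64 members (87.5%) were called higher, this count does not set pairs apart from other members. The changes of partners correlated with Pearson's r of 0.655 across the 12 pairs, as a description, and their median absolute difference was 0.88. Hist1h2ah and Hist1h2bk, 302 bases apart, changed by 4.52 and 4.26. Hist2h2ac and Hist2h2be, 239 bases apart, had unlike values: Hist2h2ac was called higher (log2 change 1.62), whereas Hist2h2be had -0.29. The largest difference of the 12 was between Hist1h2an (3.86) and Hist1h2bp (1.84). Pairs were listed from the annotation and named after their values were seen.

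Between day 7 and day 4 the differences were small. No member was called in either direction, and over all genes tested 0.306% were called higher and 0.16% lower. At an unadjusted p under 0.05, 12 members were higher and none lower, beside 4.12% and 7.74% of all genes tested. The median log2 change was 0.31 over the members and -0.05 over all genes tested, and in 44 members both day 7 libraries were above both day 4 libraries, against 18.8% of all genes tested. Hist2h3c1 had the largest value, 0.70 (SE 0.22, adjusted p = 0.292), and Hist3h2ba the lowest, -0.64 (SE 0.40, adjusted p = 0.65). Hist2h2aa1 had 0.67 (SE 0.23, adjusted p = 0.345). Among the H3 genes, the class with the largest change by day 4, the day 7 changes ran from 0.21 to 0.70.

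Whether these differences passed the test depended on which libraries shared the estimate of spread. When the 4 libraries of days 4 and 7 were fitted alone, 17 members were called higher on day 7 and none lower, among 265 genes called higher and 344 lower. Leaving out either day 1 library left the median log2 change of the members at 0.31. Without day 4 replicate 1 it was 0.26, and without day 4 replicate 2 it was 0.34. Without day 7 replicate 1 it was 0.21, and without day 7 replicate 2 it was 0.37. Hist1h3g was called in the fit of the 2 days alone (log2 change 0.61, adjusted p = 0.0117), as was Hist1h1b (0.47, adjusted p = 0.0277).

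On day 7 against day 1, 58 of the 64 members (90.6%) were called higher, and none lower at an adjusted or unadjusted p under 0.05, against 24.7% called higher and 16.8% called lower of all genes tested. The median log2 change was 2.89, beside 0.04 over all genes tested. This comparison shares its day 1 libraries with that of day 4 against day 1 and is no independent support of it. After rescaling without the satellite-like models, 56 members were called higher and 1 lower, and of all genes tested 2187 were called higher and 4631 lower, in place of 3546 and 2410. The 6 members not called were Hist1h2ao, Hist2h2be, Hist2h3c1 and the 3 Hist3 members. In a test of any difference between the 3 days, 57 members were called, against 37.2% of all genes tested.

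Genes that act with or on histones, and cell-cycle genes, were read from lists chosen with earlier results of these data known. Of 38 S-phase and DNA replication genes, 34 were called higher on day 4 and none lower, with a median log2 change of 1.12. Ccna2, the S-phase cyclin A2, averaged 25.9 TPM on day 4, against 1.29 TPM on day 1 (log2 change 3.56, SE 0.14, adjusted p = 3.96e-05). Rrm2, a subunit of ribonucleotide reductase, changed by 3.23 (adjusted p = 9.65e-05), and Uhrf1, which reads hemimethylated DNA, by 2.30 (adjusted p = 0.000152). All 20 mitosis genes were called higher, with a median of 2.79. Mki67, the proliferation marker, had 1.15 and 1.4 TPM on day 1, 21.1 and 21.2 TPM on day 4 and 31.1 and 35.8 TPM on day 7. Ccnb1 changed by 3.75, Top2a by 3.70 and Birc5 by 3.56 (adjusted p = 2.36e-05, 6.06e-05 and 7.87e-05). None of these lists had a call between day 7 and day 4.

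**Figure D5:**
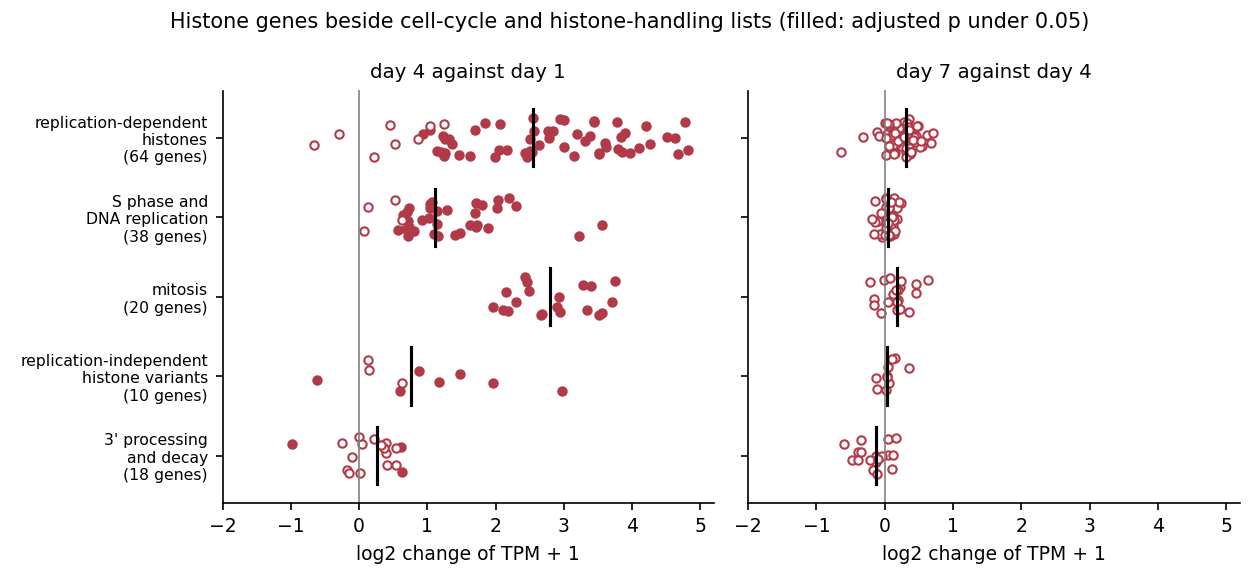
Log2 change of TPM + 1 of the 64 members and of the tested genes of 4 lists, for day 4 minus day 1 (left) and day 7 minus day 4 (right); points are genes, spread vertically for legibility, filled where the adjusted p was under 0.05, and black bars are medians. On day 4 against day 1 the medians are 2.55 for the members, 1.12 for S phase, 2.79 for mitosis, 0.76 for the replication-independent variants and 0.27 for 3' processing and decay.

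Of 18 genes of histone mRNA 3' processing and decay, 2 were called higher on day 4 and 1 lower, beside 25% and 11.6% of all genes tested, and the median log2 change was 0.27. Slbp, which binds the stem-loop, had 51.1 and 40.6 TPM on day 1, 69.0 and 73.7 TPM on day 4 and 69.0 and 61.7 TPM on day 7 (log2 change 0.63, SE 0.14, adjusted p = 0.0168). Ncbp2, of the cap-binding complex, was called higher (log2 change 0.62, SE 0.16, adjusted p = 0.0297). Upf1, a helicase of mRNA decay, was called lower, at 21.9 and 20.2 TPM on day 4, against 33.6 and 53.9 TPM on day 1 (log2 change -0.98, SE 0.23, adjusted p = 0.0192).

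Among 9 genes of histone gene transcription, 2 were called higher and 1 lower, shares near the 25% and 11.6% of all genes tested, and its genes are given singly. Npat, the coactivator of histone genes at the histone locus body, averaged 10.3 TPM on day 4, against 8.71 TPM on day 1, and was not called (log2 change 0.23, SE 0.13, adjusted p = 0.222). The partner of E2F factors Tfdp1 was higher on day 4 (log2 change 1.09, SE 0.11, adjusted p = 0.00084), as was E2f2 (log2 change 0.97, SE 0.22, adjusted p = 0.0179). Pou2f1, the octamer-binding factor, was lower, at 3.27 and 3.03 TPM on day 4, against 13.1 and 6.27 TPM on day 1 (log2 change -1.29, SE 0.31, adjusted p = 0.0228).

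Of 22 histone chaperone and import genes, 7 were called higher and 3 lower, also near the shares over all genes tested, and given singly too. Asf1b, the H3-H4 chaperone of dividing cells, had 2.9 and 2.84 TPM on day 1, 15.2 and 14.0 TPM on day 4 and 17.9 and 18.8 TPM on day 7 (log2 change 2.01, SE 0.13, adjusted p = 0.00016), and Chaf1a, a subunit of the replication-coupled assembly factor CAF-1, changed by 1.17 (adjusted p = 0.00533). Daxx, the chaperone of the replacement histone variant of H3, was lower on day 4, at 26.8 and 26.8 TPM on day 4, against 86.0 and 84.6 TPM on day 1 (log2 change -1.64, SE 0.10, adjusted p = 0.00012).

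Replication-independent histone variants are made outside S phase as well. Of 15 listed, 10 were tested, 6 were called higher on day 4 and 1 lower, with a median log2 change of 0.76. Cenpa, the centromeric variant of H3, had 2.17 and 2.27 TPM on day 1, 22.9 and 25.5 TPM on day 4 and 29.2 and 23.1 TPM on day 7 (log2 change 2.97, SE 0.15, adjusted p = 8.38e-05). H2afx, the variant phosphorylated at DNA breaks, had 9.78 and 12.1 TPM on day 1, 45.6 and 44.9 TPM on day 4 and 59.8 and 56.1 TPM on day 7 (log2 change 1.96, SE 0.13, adjusted p = 0.000181), and H2afz 227 and 126.5 TPM on day 1, 491 and 459 TPM on day 4 and 523 and 459 TPM on day 7 (log2 change 1.48, SE 0.27, adjusted p = 0.00846). H2afv (log2 change 0.88), H2afy2 (1.18) and H2afj (0.60) were called higher as well. H3f3b, which encodes the replacement H3, was lower, at 363 and 362 TPM on day 4, against 617 and 499 TPM on day 1 (log2 change -0.61, SE 0.15, adjusted p = 0.0209), whereas the gene H3f3a for the same protein had 1037 and 1024 TPM on day 4, against 809 and 544 TPM on day 1 (log2 change 0.64, adjusted p = 0.0552). H2afy (0.15) and H1f0 (0.13) were not called.

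Of 15 genes of cell cycle exit and CDK inhibition, 6 were called higher and 1 lower, beside 25% and 11.6% of all genes tested. The largest changes were in Gas1 (log2 change 2.50, SE 0.19, adjusted p = 0.000289), Cdkn2c (log2 change 2.17, SE 0.14, adjusted p = 0.000198) and Cdkn2d (log2 change 1.45, SE 0.22, adjusted p = 0.00453), of which Cdkn2c and Cdkn2d encode INK4-family inhibitors.

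Markers of other liver cells moved with day as well. Of 14 macrophage markers, 10 were called higher on day 4 and 1 lower, among them Clec4f, a marker of Kupffer cells, at 1451 and 1373 TPM on day 4, against 182 and 148 TPM on day 1, and all 10 myofibroblast markers were called higher. All 6 mesothelial markers were called higher, with a summed level of 39.6 to 41.8 TPM on day 4, against 6.55 to 7.36 TPM on day 1. The 5 hepatocyte markers tested were called lower, with a sum of 2.61 to 4.96 TPM on day 4, against 45.5 to 55.3 TPM on day 1. Other lists covered T and NK cells, B cells, dendritic cells, neutrophils, cholangiocytes, erythroid and endothelial cells. On day 4 against day 1 they gave 0 to 5 genes called higher and 0 to 3 lower in a list. Ly6g, a defining neutrophil marker, was at 0 in every library, but other neutrophil markers were not. The neutrophil list summed to 8.55 to 14.56 TPM on day 1 and 10.04 to 21.11 TPM on day 4. On day 7 its sum was 23.98 to 24.01 TPM. Of 2 neutrophil markers tested, Mmp8 was called higher on day 7 against both earlier days, and S100a8 was not. The 9 endothelial markers summed to 1922 to 1941 TPM on day 1, 1935 to 2054 TPM on day 4 and 1851 to 1949 TPM on day 7. That was above the stellate sum on each day. Single endothelial markers moved in both directions. On day 4 against day 1, 5 of the 9 were called higher and 1 lower, with log2 changes from -1.60 to 3.66. Cholangiocyte markers summed to 27.7 to 35.6 TPM on day 1, 124 to 126 TPM on day 4 and 626 to 683 TPM on day 7. The genes of this list moved unequally. Of 4 tested, 2 were called higher on day 7 against day 1, with a median log2 change of 0.62 and changes from -0.67 to 4.56. T and NK cell markers summed to 51.2 to 63.2 TPM on day 1 and 8.42 to 10.3 TPM on day 7. Which cells the histone mRNA came from, and the part of a change in cell makeup in these results, was not tested.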

How the data were processed

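The authors' deposited values are TPM, given once per gene symbol and library for 6 libraries (2 each on days 1, 4 and 7). Trimmomatic, HISAT2 (2.0.5), StringTie (1.3.3b), mm10 and GRCm38 are named in the submitters' processing notes; what each tool did, which annotation was used and how reads matching several genes were treated is not given in the sources used here. The members and lists were chosen with earlier results of these data known.

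From these values, the 14373 genes that reached 1 TPM in 2 or more libraries were transformed as log2(TPM + 1), which understates changes of low genes, and analysed by limma 3.58.1 (R 4.3.3) with day as a factor, moderated variances with trend and robust, and 3 residual degrees of freedom. Benjamini-Hochberg adjustment ran over all tested genes, with a threshold of 0.05. The fit was tested on simulated data. Coordinates, 50-base words and stem-loops come from GENCODE M21 (GRCm38), and promoters from RefSeq (GRCm38.p6). Satellite-like models are 12 gene models that share at least 10% of their 20-base words with Gm10800. The 30 symbols given in full were those with the highest mean or the largest or smallest change in a class, the Hist3 and Hist4 members and those nearest the level required; Hist1h1d, Hist1h2ao, Hist1h2bc, Hist1h3c and Hist1h4b were added after their values were seen. TPM keeps no depth, so no counting error was computed. The alternatives were other pseudocounts, filters, scalings, variance settings, a 2-fold threshold, a replicate block, fits of 2 days, leaving out each library and summing members linked by shared words.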

Additional observations from a re-analysis of the deposited data

How the results depend on the processing

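The counts of members called higher kept within 1.5 times of 56 on day 4 against day 1 and of 58 on day 7 against day 1 under every alternative run on single symbols. Leaving out 1 library at a time gave 52 to 60 and 54 to 61. Members linked by shared words and summed to 28 rows gave 23 and 24 rows called higher, and 24 in the test over the 3 days, a difference that follows from counting fewer rows. With a 2-fold threshold 42 members were called higher on day 4 against day 1 and 46 on day 7 against day 1. Over all 14373 genes tested, 499 and 630 were called higher at that threshold. On day 4 against day 1, the members called lower numbered 0 as reported, 1 with median-ratio scaling, quantile normalization or a variance without trend, and 2 when rescaled without the satellite-like models; on day 7 against day 1 that rescaling gave 1. The cause was not tested. For day 7 against day 4, the members called higher numbered 17 when only the 2 days were fitted and 0 to 15 when 1 library was left out.

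Rescaled without the satellite-like models, the day 1 sums were 178 TPM for H1, 1023 for H2A, 174 for H3, 913 for H4, 1872 for Hist1, 1017 for Hist2, 5.44 for Hist4 and 2944 for all members. These moved by more than 1 SD because the rescaling multiplies every day 1 value. Over the named members and the 3 comparisons, 1327 of the single values kept their side of the threshold, 37 newly passed it, 22 no longer did, and none changed sign while called.

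The labels do not say whether replicate numbers pair the libraries. Correlations of deviations from the day means lay between -0.056 and 0.067 for libraries of the same number. These values cannot settle it, because the 2 deviations of a day mirror each other and day 1 replicate 3 has no library of its number. A fit with the replicate number as a block left 1 residual degree of freedom. Number 3 occurs only on day 1, so day 1 then rested on replicate 2 alone. In that fit the median log2 change of the members was 2.31 on day 4 against day 1. It was 0.31 on day 7 against day 4 and 2.66 on day 7 against day 1. Depth is unknown, near-identical copies may share reads, and 2 libraries a day limit the precision of each value.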
